A study of Mus musculus with 8 samples.

Results

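The 5 keratin genes described here are Krt6a, Krt6b, Krt16 and Krt17, known as stress or wound keratins, and Krt12, best known as the keratin of the corneal surface. They are 5 of the 21690 genes, and of the 53 keratin genes, of an expression table of mouse back-skin epidermis at postnatal day 5. The genes were picked by name with earlier results of the same contrast known, so their differences between groups are given as descriptions without a test. RNA sequencing compared epidermis of 4 experimental and 4 control animals, called biological replicates in the labels, to ask what the loss of ESRP1 and ESRP2 does; these are epithelial RNA-binding proteins that regulate splicing.

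Experimental animals were K5rTA tetOCre Esrp1flox/flox; Esrp2-/-, and controls were Esrp1flox/flox; Esrp2-/-. The Cre recombinase of the experimental animals depends on doxycycline and on a transactivator named for keratin 5, a keratin of basal cells. All mothers ate doxycycline chow from embryonic day 17. The defining keratins of epidermis, Krt5, Krt14, Krt1 and Krt10, were present in every library. Both groups thus lacked Esrp2 by genotype, and the comparison was of the added Esrp1 deletion together with the transgenes. Esrp1 read 65.0, 49.8, 75.6 and 66.5 TPM (a length-normalised share of all transcripts) in experimental libraries 1 to 4, against 135, 131, 133 and 162 TPM in control libraries 1 to 4, with no overlap (log2 change -1.13, SE 0.17, limma adjusted p = 0.0112).

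Keratins form filaments as pairs of an acidic type I and a basic type II protein. In resting epidermis the pair of basal cells is Krt5 with Krt14, and that of the layers above is Krt1 with Krt10. Krt6a and Krt6b (type II) and Krt16 and Krt17 (type I) are known to be made constitutively in parts of the hair follicle and on the palms and soles, and to appear between follicles after wounding, in psoriasis and under other stress. Krt12 is a type I keratin whose usual partner in the human cornea is KRT3.

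Krt6a and Krt6b are nearly the same in coding sequence. Over 1662 aligned coding bases 1625 were identical (97.8%), and the longest run without a difference was 280 bases, from coding base 34 to 313. The coding window with the most differences, bases 787 to 876 counted from the start codon, is shown as 1 example. Short reads can tell the genes apart only where the transcripts differ, which includes stretches outside this window. The sequences are from the GENCODE M21 transcripts (GRCm38), run 5′ to 3′, and have the 12 differing bases in capitals.
Krt6a: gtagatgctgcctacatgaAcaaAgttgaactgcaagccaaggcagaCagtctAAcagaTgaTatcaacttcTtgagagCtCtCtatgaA
Krt6b: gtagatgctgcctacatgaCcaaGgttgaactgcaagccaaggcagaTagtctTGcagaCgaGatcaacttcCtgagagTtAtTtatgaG

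Of the 31-base words of the Krt6a transcript, 49.3% also occurred in Krt6b, and 66.6% occurred in some other gene. For Krt6b 50.3% occurred in Krt6a and 57.0% in some other gene. Krt16 shared 51.9% of its words with other genes, most of them with Gm11597, and Krt17 shared 15.8%, most with Krt14. Coding identity was 86.5% between Krt14 and Krt16, 84.1% between Krt14 and Krt17 and 78.9% between Krt16 and Krt17. No source used here says how the authors' counting divided reads between such copies, so the split between Krt6a and Krt6b is uncertain.

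Among the type II stress keratins, Krt6b was many times higher in experimental epidermis and Krt6a was not separated. Krt6b (ENSMUSG00000023041.7; chr15:101676023-101680287, minus strand, GRCm38) read 91.4, 40.1, 48.2 and 28.0 TPM in experimental libraries 1 to 4. In control libraries 1 to 3 it read 7.27, 4.04 and 1.54 TPM, and in control library 4 it was listed at 0, which means 1 TPM or less. The lowest experimental library was thus above the highest control. The experimental mean was 51.9 ± 27.6 TPM (SD, n = 4) and the control mean was 3.46 TPM with that last library counted as 1 TPM, so the experimental mean was at least 15.0-fold higher (3.66 on the log2(TPM + 1) scale). Leaving out control library 1, the highest control, gave at least 23.7-fold; against controls 1 and 2 alone it was 9.19-fold and against controls 3 and 4 alone at least 40.8-fold.

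Krt6a (ENSMUSG00000058354.7; chr15:101689910-101694307, minus strand), its near-copy and neighbour, is known in mice from the hair follicle and nail bed. It read 244, 64.7, 125 and 98.6 TPM in experimental libraries, against 72.2, 89.8, 59.3 and 90.2 TPM in controls. Experimental library 1 was far above the rest and experimental library 2 lay among the controls, so the groups overlapped. The means were 133 ± 77.9 and 77.9 ± 14.9 TPM in experimental and control libraries (SD, n = 4 each), a ratio of 1.71, or 1.23 without experimental library 1. The mitochondrially encoded share of TPM was 18.2% in experimental library 2 and 17.5% in experimental library 4, and elsewhere it ranged between 10.6% and 12.6%. Without these libraries the Krt6a groups did not overlap and the ratio was 2.37. The part of RNA quality in this was not tested.

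Krt16 (ENSMUSG00000053797.10; chr11:100246091-100248902, minus strand), the usual type I partner of Krt6 in stressed epidermis, was higher in every experimental library. It read 422, 254, 326 and 222 TPM in experimental libraries, against 107, 91.3, 43.9 and 30.2 TPM in controls. The gap between groups was wide, although controls 1 and 2 lay well above controls 3 and 4. The means were 306 ± 88.7 and 68.1 ± 36.9 TPM in experimental and control libraries (SD, n = 4 each), a 4.49-fold higher level (2.28 on the log2 scale). Against controls 1 and 2 alone it was 3.08-fold higher, and against controls 3 and 4 alone 8.25-fold.

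Krt17 (ENSMUSG00000035557.9; chr11:100256217-100261029, minus strand), a type I keratin of the follicle's outer root sheath as well as of stressed epidermis, was the most abundant of the 5 and did not share the difference. It read 2561, 1547, 1766 and 2079 TPM in experimental libraries, against 2563, 2765, 1986 and 2110.3 TPM in controls. The ranges overlapped over most of their length. The means were 1988 ± 440 and 2356 ± 368 TPM in experimental and control libraries (SD, n = 4 each), a ratio of 0.844 (-0.26 on the log2 scale). The median of all 10682 tested genes was itself -0.18, and centring each library on its median, which adds 0.21 to every log2 change, moved Krt17 to -0.04. Against controls 1 and 2 alone, the highest controls for Krt17, the ratio was 0.746 and the groups did not overlap. That separation was narrow, with 2560.8 TPM in experimental library 1 against 2562.8 TPM in control library 1. Against controls 3 and 4 alone the ratio was 0.971, with overlap.

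Krt12 (ENSMUSG00000020912.4; chr11:99415666-99422259, minus strand) was low in control epidermis and reached the level of Krt6b in experimental epidermis. Its levels were 75.5, 72.5, 63.9 and 10.3 TPM in experimental libraries, against 7.97, 8.11, 1.76 and 1.49 TPM in controls. Experimental library 4 was far below the other experimental libraries and only slightly above controls 1 and 2, and the groups did not overlap. The means were 55.5 ± 30.6 and 4.83 ± 3.70 TPM in experimental and control libraries (SD, n = 4 each), an 11.5-fold higher level (3.21 on the log2 scale), or 14.6-fold without experimental library 4. Against controls 1 and 2 alone it was 6.91-fold higher, and against controls 3 and 4 alone 34.1-fold.

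The limma fit called 2.46% of all genes in either direction at an adjusted p under 0.05, and no call is given for the 5. In all, 3 of the 5 keratins, Krt6b, Krt16 and Krt12, did not overlap between groups and were higher in experimental epidermis. Of all 10682 genes tested, 2.7% were higher without overlap and 9.94% lower without overlap; since the 5 were chosen with this contrast known, nothing is read from their count. In such bulk samples, more cells making a keratin and more of its RNA per cell cannot be told apart.

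**Figure D1:**
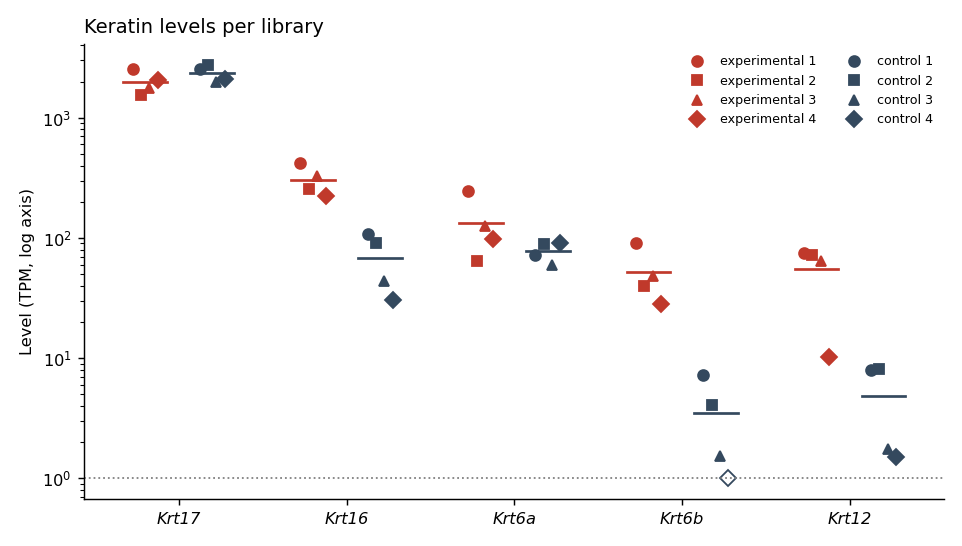
Level of each keratin in every library (TPM, log axis); points are libraries, horizontal lines group means, the open symbol an entry at or under 1 TPM (dotted line), with experimental libraries left of controls. Krt16, Krt6b and Krt12 separate the groups, with experimental library 4 lowest for Krt12 at 10.3 TPM, whereas Krt17 and Krt6a overlap.

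The order of the levels was not the same in the groups. In experimental epidermis it was Krt17, Krt16, Krt6a, Krt12 and Krt6b from highest to lowest, and of neighbours in this order only Krt17 and Krt16 were separated by their ranges. Krt16 was above Krt6a in 4 of 4 experimental libraries, Krt6a above Krt12 in 3 and Krt12 above Krt6b in 2. In control epidermis the order was Krt17, Krt6a, Krt16, Krt12 and Krt6b; of neighbours, Krt17 was clear of Krt6a and Krt16 of Krt12, while Krt6a was above Krt16 in only 2 of 4 libraries.

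Among the 45 keratins above 1 TPM in at least 1 library, Krt17 ranked 3 in experimental and 6 in control epidermis by mean TPM. Krt16 ranked 13 in experimental and 30 in control epidermis, and Krt12 29 and 38, Krt6b 30 and 40, and Krt6a 25 and 29 in the same order of groups. The 5 keratins therefore all stood higher by rank in experimental epidermis, Krt17 included, whose own mean was lower there. Such ranks also depend on the other keratins. The follicle keratins Krt71, Krt25 and Krt27 lay above Krt17 in controls (means 5301, 4102 and 4053 TPM). In experimental epidermis they lay below it (1827, 1563 and 1494 TPM). Their control means included 12529, 9266 and 9306 TPM in control library 4.

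The summed level of the 5 keratins was nearly the same in both groups, 2534 ± 605 TPM in experimental and 2510 ± 414 TPM in control libraries (SD, n = 4 each); the mean of Krt17 was lower in experimental libraries and the means of the other 4 were higher. They made up 4.33% ± 0.60 of all keratin TPM in experimental and 3.98% ± 0.89 in control libraries, with overlap. Krt17 supplied 75.5% to 85.3% of the sum in experimental libraries and 92.9% to 94.9% in controls. Without Krt17, the other 4 held 0.655% to 1.18% of keratin TPM in experimental and 0.166% to 0.346% in control libraries, which did not overlap.

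The total share also depended on the denominator. Follicle keratins summed to 1670.4 to 12223 TPM in experimental and 7271 to 50021 TPM in control libraries. With these left out of the denominator, the 5 keratins held 4.93% ± 0.80 in experimental and 6.82% ± 1.79 in control libraries (SD, n = 4 each), again with overlap. Control library 4 was highest at 9.48%, and without it the control mean was 5.93%.

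Ratios within a library do not depend on how libraries are scaled to each other. Krt6b over Krt6a was 0.375, 0.619, 0.387 and 0.284 in experimental libraries, against 0.101, 0.0450, 0.0260 and at most 0.0111 in controls. Krt16 over Krt17 was 0.107 to 0.184 in experimental and 0.0143 to 0.0418 in control libraries. Both ratios separated the groups: Krt6b was higher relative to its near-copy, and Krt16 relative to the type I keratin next to it on chromosome 11.

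Against the basal keratin Krt14, Krt16 stood at 0.1803 to 0.359 in experimental and 0.0309 to 0.0779 in control libraries. Krt6b over Krt14 was 0.0227 to 0.0777 in experimental and at most 0.00258 in control libraries. Against the suprabasal keratin Krt10, Krt16 stood at 0.00999 to 0.0148 in experimental and 0.00281 to 0.00529 in control libraries. Krt16 therefore separated the groups against each of these reference keratins, as Krt6b did against Krt14.

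The pairs that did not separate all involved Krt6a, Krt17 or Krt12. Krt6a over Krt14 was 0.0727 to 0.207 in experimental and 0.0213 to 0.233 in control libraries, and Krt17 over Krt14 was 1.07 to 2.18 in experimental and 0.757 to 5.45 in control libraries. Krt12 over Krt16 was 0.0463 to 0.286 in experimental and 0.0401 to 0.0888 in control libraries. The summed Krt6 genes over Krt16, type II over its type I partner, were 0.413 to 0.795 in experimental and 0.742 to 3.02 in control libraries.

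**Figure D2:**
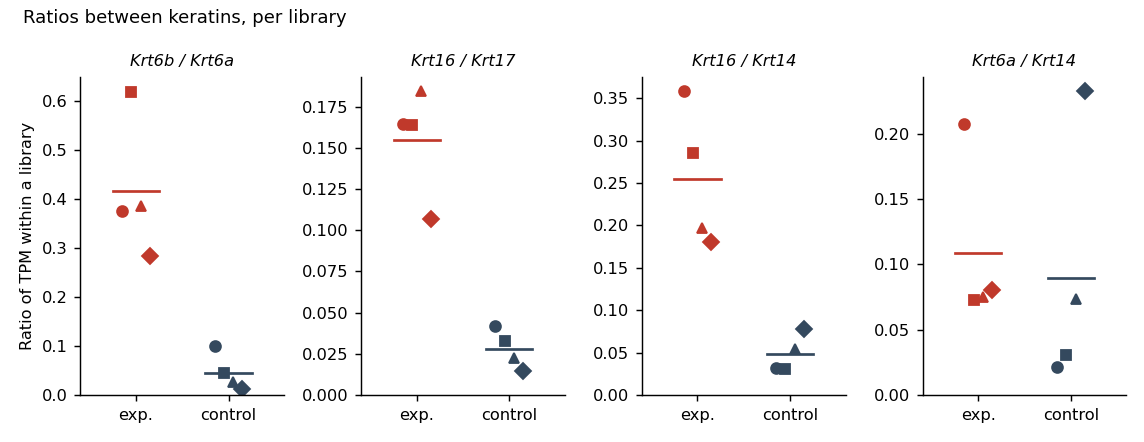
Ratio of TPM between keratins within each library, experimental (exp., red) left of control (dark); points are libraries and lines group means, on linear axes from 0. Krt6b over Krt6a, Krt16 over Krt17 and Krt16 over Krt14 do not overlap between groups, and Krt6a over Krt14 does, with experimental library 1 at 0.207 and control library 4 at 0.233.

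Libraries of a group did not vary alike for all 5 genes. In experimental libraries, library 1 was above its group mean for all 5 keratins, most for Krt6a (1.04 on the log2 scale) and Krt6b (0.94). Krt75, a type II keratin of the follicle's companion layer, read 116, 10.3, 17.8 and 28.1 TPM in experimental libraries, against 73.3, 120, 95.0 and 94.5 TPM in controls. The experimental library with the most Krt75 was thus the one with the most Krt6a, and that with the least Krt75 had the least Krt6a. Experimental libraries 3 and 4 went the other way, with less Krt75 but more Krt6a in library 3. In controls Krt75 was highest in library 2 and lowest in library 1, whereas Krt6a was highest in library 4 and lowest in library 3. The follicle's part in the spread of Krt6a was not tested. Krt6a over Krt75 was 2.09 to 7.01 in experimental and 0.625 to 0.984 in control libraries, with no overlap.

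Krt12 deviated by -1.997 in experimental library 4, against 0.53 to 0.76 in the other experimental libraries. Krt6b and Krt16 were also lowest in that library, by -0.73 and -0.42, but less far from the next lowest library than Krt12 was.

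In controls, Krt6b, Krt16 and Krt12 were all above their group mean in libraries 1 and 2 and below it in libraries 3 and 4, by 0.40 to 1.12 and by -0.97 to -0.44 on the log2 scale. The basal keratins did the same: Krt5 read 3102, 2617, 1020 and 316 TPM and Krt14 3387, 2953, 808 and 387 TPM in control libraries 1 to 4. Krt6a deviated by only -0.37 to 0.23 in controls and Krt17 by -0.23 to 0.24.

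**Figure D3:**
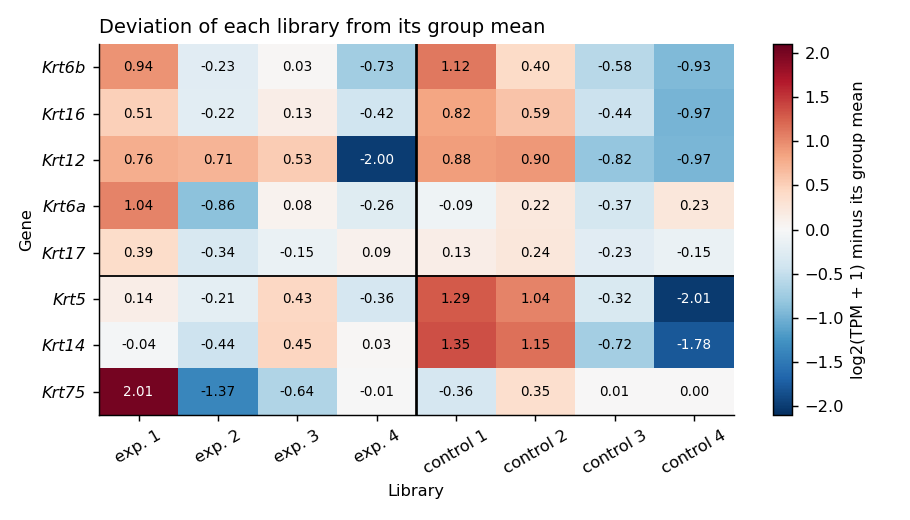
Deviation of log2(TPM + 1) from the mean of its own group, for the 5 keratins (upper block) and for Krt5, Krt14 and Krt75 (lower block), with experimental (exp.) libraries left of controls; red is above and blue below the group mean. Control libraries 1 and 2 are above and 3 and 4 below the mean for Krt6b, Krt16 and Krt12 as for Krt5 and Krt14, and experimental library 4 stands at -1.997 for Krt12.

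Likeness of profiles was measured as the root mean square difference, over the 8 libraries, of log2 levels each centred on the gene's own mean; it includes the difference between groups and is a description. Krt6b and Krt12 were the nearest of the 3 keratins that separated the groups (0.66), followed by Krt16 with Krt6b (0.73) and Krt16 with Krt12 (0.83). Krt17 and Krt6a differed by 0.57. Krt6a and Krt6b, nearly identical in coding sequence, differed by 1.66, and Krt17 was farthest from Krt6b (2.04).

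Of genes with a mean of at least 5 TPM outside the 5, those nearest to Krt6b were Sprr1b (0.63), Lce3e (0.78) and Sprr2e (0.79), which encode proteins of the cornified envelope, the outer shell of surface keratinocytes. Nearest to Krt16 were the glutathione transferase genes Gstm7 (0.32), Gstm6 (0.40) and Gsto1 (0.42). Nearest to Krt12 were Fetub (0.80), Gstm7 (0.86) and Stfa2 (0.86), which encode the secreted protease inhibitor fetuin-B, a glutathione transferase and a stefin. Nearest to Krt6a were Klk6, Lypd3 and Cryab (0.31 to 0.32), and nearest to Krt17 Cyb561d2, Dnajb12 and Inpp5k (0.08 to 0.10).

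Fetub showed the same low library as Krt12. It read 19.9, 9.68, 14.1 and 2.03 TPM in experimental libraries, against 1.54 TPM in control library 1 and 1 TPM or less in the other 3 controls. Gstm7 averaged 15.1 ± 5.22 TPM and Gstm6 20.9 ± 4.29 TPM in experimental libraries, against at most 3.03 TPM and 6.58 ± 3.93 TPM in controls. Stfa2 averaged 861 ± 363 TPM in experimental and 263 ± 189 TPM in control libraries, and Gsto1 298 ± 56.5 and 116 ± 64.7 TPM in experimental and control libraries. Since likeness included the difference between groups, no test is given here for these genes. Fetub, Gstm7, Sprr2e and Lce3e reached a mean of 5 TPM only through their experimental libraries.

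Most other keratins of the table were on the lower side in experimental epidermis. Of the 37 other keratins tested, 31 had a log2 change below 0 and 6 above it, with a median of -1.49 against -0.18 for all genes. By limma with Benjamini-Hochberg adjustment none rose and Krt15 alone fell, against 0.917% of all genes higher and 1.54% lower. Without overlap, Krt1 and Krt4 were higher, and Krt15, Krt28, Krt32, Krt36 and Krt73 were lower. Those are 2 and 5 of the 37, against 2.7% of all genes higher and 9.94% lower without overlap. Krt4 lay close to the limit of 1 TPM, at 1.6039 to 2.7804 TPM in experimental libraries and at most 1.2519 TPM in controls. It was at or under 1 TPM in 2 controls and reached the mean of 1 TPM needed for testing only through its experimental libraries.

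Krt15, a type I keratin of basal and follicle stem cells, read 48.9, 115, 170 and 97.7 TPM in experimental libraries, against 1323, 1124, 876 and 184 TPM in controls (log2 change -2.82, SE 0.59, limma adjusted p = 0.0361). Leaving out any 1 library other than control 4 ended this call, as did median centring, quantile normalization and dropping the filter on low values. Krt5, Krt14, Krt1 and Krt10 did not pass. Krt5 averaged 796 ± 198 and 1764 ± 1313 TPM, and Krt14 1239 ± 316 and 1884 ± 1505 TPM, in experimental and control libraries (limma adjusted p = 0.576 and 0.926). Against controls 1 and 2 alone Krt5 and Krt14 did pass as lower in experimental libraries, with a log2 change of Krt5 of -1.87 (limma adjusted p = 0.00422) and a log2 change of Krt14 of -1.39 (limma adjusted p = 0.00801). Krt1 averaged 19005 ± 3531 and 11546 ± 4148 TPM, and Krt10 25145 ± 4628 and 16787 ± 4943 TPM, in all experimental and control libraries (limma adjusted p = 0.247 and 0.330).

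By list, 14 epidermal keratins were tested, with 0 rises, 1 fall and a median of -0.22 (2 higher and 1 lower at an unadjusted p under 0.05). At that unadjusted threshold limma placed 3.54% of all genes higher and 13.4% lower. All 23 follicle keratins tested were below 0, with a median of -2.07. None of these passed, while 16 were lower at an unadjusted p under 0.05; 3 fell without experimental library 1 and 4 without control library 1. Krt71 averaged 1827 ± 1213 and 5301 ± 4895 TPM and Krt25 1563 ± 945 and 4102 ± 3516 TPM in experimental and control libraries (limma adjusted p = 0.317 and 0.335).

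**Figure D4:**
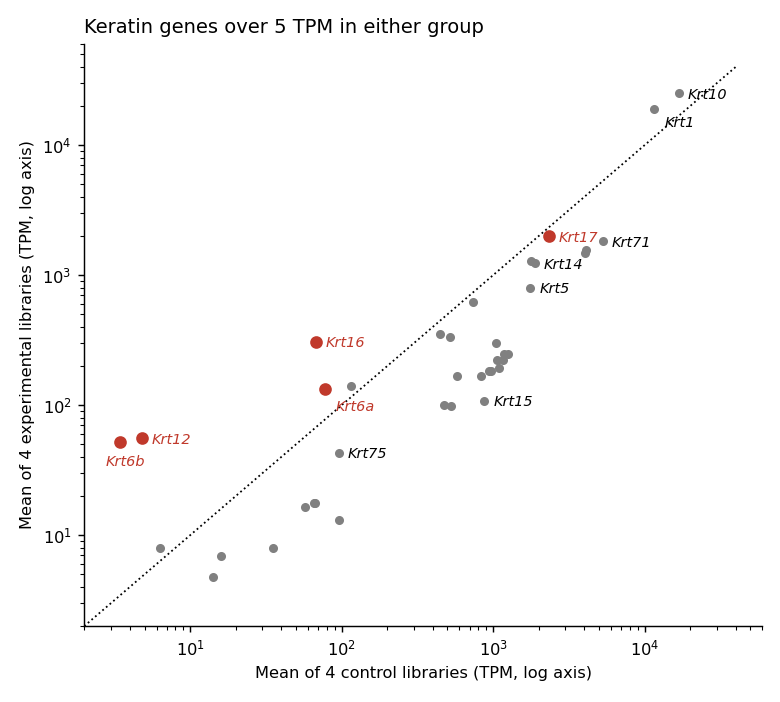
Mean level of 39 keratins over 5 TPM in either group, experimental (vertical) against control (horizontal), both on log axes in TPM; red points are the 5 keratins, grey points other keratins, and the dotted line marks equal levels. Krt6b, Krt12, Krt16 and Krt6a lie above the line with Krt1 and Krt10, Krt17 lies close to it, and most other keratins lie below it.

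Krt12 was the only one of the 5 with entries in the authors' deposited splicing table, which gives 1 PSI (percent spliced in, here as the fraction of splice-site reads that take a given junction or intron) per group and no value per library. Its 4 entries are introns that read as kept in the RNA, both marked as absent from the annotation, and the spliced junctions over them. Exons of an antisense gene, described below, cover part of the first intron and all of the second. The intron between exons 2 and 3 (chr11:99419701-99420744, 1044 bases) had a PSI of 0.196 in experimental and 0.458 in control epidermis in the authors' deposited table, a difference of -0.266 with a probability of 0.98 that it is at least 0.15 in size. The intron between exons 3 and 4 (chr11:99418647-99419543, 897 bases) had a PSI of 0.217 in experimental and 0.589 in control epidermis in the same deposited table, a difference of -0.383 with a probability of 1.

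The spliced forms went the other way. The junction of exon 2 to exon 3 had a PSI of 0.777 in experimental and 0.461 in control epidermis, and that of exon 3 to exon 4 had 0.783 in experimental and 0.411 in control epidermis, in the authors' deposited table. With 1 value per group the PSI values have no replicate spread.

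Exon 3 of Krt12 lies between these introns (chr11:99419544-99419700, 157 bases, GRCm38, minus strand) and is shown for that reason, read 5′ to 3′ on the gene's strand, with its first and last 3 bases, which meet the splice sites, in capitals.
Krt12 exon 3: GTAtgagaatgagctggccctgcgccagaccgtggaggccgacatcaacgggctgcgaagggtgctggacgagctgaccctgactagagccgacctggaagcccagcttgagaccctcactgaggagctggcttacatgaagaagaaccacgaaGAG

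A second gene covers the same region. A830036E02Rik (chr11:99416956-99425497, plus strand, GENCODE M21) is annotated as antisense to Krt12, and its exons hold 41.1% of the bases of the first intron and 100% of the second. It holds all of the 46.8% of 31-base words that Krt12 shares with another gene, and it is not among the genes of the expression table used here. The labels name a library kit and do not say that strand was kept. In the stretches that both genes hold, reads therefore cannot be assigned to 1 of them, in the introns or in the Krt12 level. The other words of Krt12 occurred in no other gene, and the rest of the first intron lies outside these antisense exons. Krt12 read only 1.49 to 8.11 TPM in controls, against 10.3 to 75.5 TPM in experimental libraries. The part of antisense reads in the PSI values was not tested.

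Kept introns were not generally lower. Of 153 introns of 106 genes in the deposited splicing table, 45 (29.4%) had a lower PSI in experimental epidermis and 108 a higher one, with a median difference of 0.252. The 2 Krt12 introns were among the 45, and 30 and 16 introns had a lower difference than the first and the second.

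**Figure D5:**
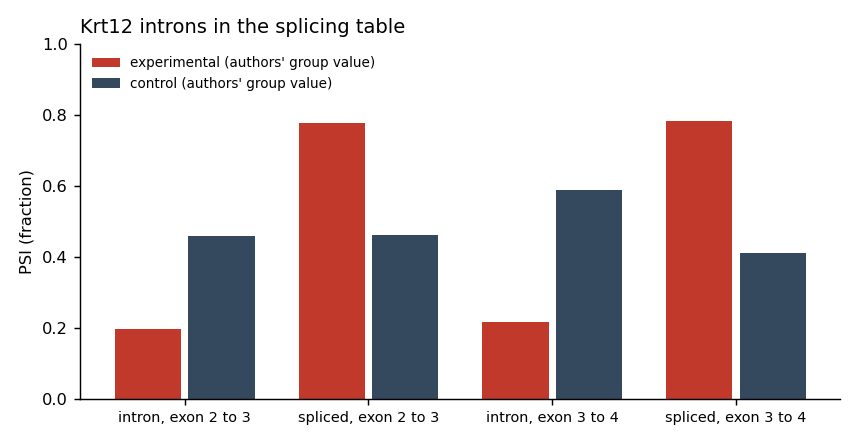
PSI of the Krt12 introns and of the spliced junctions over them, as the authors' single value per group (fraction, linear axis from 0), experimental left of control. Both introns are lower in experimental epidermis (0.196 and 0.217, against 0.458 and 0.589) and both junctions higher.

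Genes that accompany stress keratins in wounded or inflamed skin were looked up by list. This list and those below were chosen with earlier results of these data known. Their counts and p-values are therefore descriptions, and nothing is read from them about a shared programme. Of 18 tested wound and alarm genes 8 rose and 0 fell, with a median log2 change of 0.80 against -0.18 for all genes; 9 were higher and 0 lower at an unadjusted p under 0.05. Over all genes the shares were 0.917% higher and 1.54% lower by adjusted p, and 3.54% higher and 13.4% lower by unadjusted p. The 8 were Sprr1b, Sprr2d, Sprr2e, Sprr2h, Lce3e and Lce3f of the cornified envelope, Defb14, which encodes an antimicrobial defensin, and Il1f9, which encodes the cytokine IL-36γ. Sprr2d averaged 288 ± 13.8 TPM in experimental and 5.11 ± 1.91 TPM in control libraries, and Sprr2h 370.3 ± 31.6 and 50.6 ± 16.1 TPM in experimental and control libraries (SD, n = 4 each; limma adjusted p = 3.37e-06 and 0.000228). Sprr2e read 11.6 to 15.9 TPM in experimental libraries and was at or under 1 TPM in every control, at least 13.6-fold higher on the means. It reached the mean of 1 TPM needed for testing only through its experimental libraries. Lce3f averaged 8.17 ± 1.18 and 1.31 ± 0.22 TPM in experimental and control libraries. Sprr2d varied far less between experimental libraries than Krt6b did, with values from 268 to 297 TPM. Of the 8, Lce3f, Sprr2d, Sprr2e and Sprr2h also passed without experimental libraries 2 and 4, and the other 4 did not.

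The IL-1, IL-36 and TNF families are known to act on Krt6 and Krt16 in keratinocytes. Of 11 tested genes 3 rose and 0 fell, with a median of 0.59. By the same adjusted p 0.917% of all genes were higher and 1.54% lower. Il1f9 is on this list and on that of wound and alarm genes. Il1rn, the IL-1 receptor antagonist, averaged 138 ± 19.2 TPM in experimental and 73.7 ± 9.18 TPM in control libraries (log2 change 0.90, SE 0.17, limma adjusted p = 0.0256). Il1f6, which encodes IL-36α, averaged 68.9 ± 12.0 and 38.0 ± 1.96 TPM, and Il1f9 139 ± 27.8 and 78.2 ± 5.93 TPM, in experimental and control libraries (limma adjusted p = 0.0331 and 0.0443). These calls were fragile: 0 of the 11 passed without experimental library 3 or 4 or without control library 2 or 3, 1 passed without experimental library 1 or 2 or control library 1, and 5 without control library 4.

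NRF2 is a transcription factor that answers oxidative stress and is known to act on Krt6, Krt16 and Krt17. Of 10 tested genes of its list 2 rose and 1 fell, with a median of 0.26. Among all genes 0.917% were higher and 1.54% lower by adjusted p. Srxn1, sulfiredoxin, averaged 20.5 ± 2.45 TPM in experimental and 10.7 ± 1.69 TPM in control libraries (limma adjusted p = 0.0272). Gsta3, a glutathione transferase, read 1.92 to 2.57 TPM in experimental libraries, against 1.20 TPM in control library 1, with the other 3 controls at or under 1 TPM. Osgin1 was at or under 1 TPM in every experimental library and averaged 3.09 ± 0.34 TPM in controls, at least 3.09-fold lower. Gsta3 reached the mean of 1 TPM needed for testing only through its experimental libraries, and Osgin1 only through its controls. No p-value is therefore given for them. With a mean of 5 TPM needed instead, Srxn1 was the only call of this list. Neither the rise of Srxn1 nor that of Gsta3 held without experimental library 1, 3 or 4 or control library 2 or 3.

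The other lists known to act on these keratins held no rise or fall by limma. At an unadjusted p under 0.05, 1 of 9 genes of the EGF receptor and its ligands was higher (median -0.27), 1 of 5 of the STAT3, IL-17 and IL-22 response (0.14), 1 of 8 AP-1 subunits (0.18), 0 of 2 of the Hedgehog and GLI genes (-0.42) and 0 of 7 nuclear receptors (-0.19); none was lower, against 3.54% of all genes higher and 13.4% lower. By their values, Tgfa averaged 28.0 ± 11.1 and 52.7 ± 43.4 TPM, Stat3 24.2 ± 3.35 and 23.7 ± 10.7 TPM, and Junb 168 ± 31.3 and 177 ± 49.8 TPM, in experimental and control libraries. Of 15 tested genes that anchor or bundle keratin filaments none passed, with 3 higher and 1 lower at an unadjusted p under 0.05 and a median of -0.27. Flg, which encodes the bundling protein filaggrin, averaged 19120.3 ± 1979 and 17454 ± 2683 TPM in experimental and control libraries.

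Other cell types of the sample were followed through marker lists, as summed TPM. The corneal markers summed to 38.0 to 90.8 TPM in experimental and 110.1 to 322 TPM in control libraries, and Pax6, the defining transcription factor of the eye, was at or under 1 TPM in all 8 libraries, as were Aldh1a1 and Muc4 (3 of 7). Of 3 corneal markers that could be tested none passed, with 2 lower at an unadjusted p under 0.05 (13.4% of all genes). Of 6 neutrophil markers 5 (Ly6g, Mpo, Elane, Csf3r and Retnlg) were at or under 1 TPM in every library, and the sums were 1.499 to 3.27 TPM in experimental and at most 2.14 TPM in control libraries.

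Follicle markers summed to 1487 to 10784 TPM in experimental and 5869 to 44215 TPM in control libraries, basal markers to 1730.4 to 2970.3 and 914 to 7999 TPM, and cell cycle genes to 91.6 to 95.5 and 38.8 to 294 TPM, in experimental and control libraries. Of 14 tested follicle markers none passed and all 14 were below 0, with 8 lower at an unadjusted p under 0.05 (13.4% of all genes). Of 7 basal markers Krt15 alone fell, against 1.54% of all genes lower by adjusted p. Control libraries 1 and 2, high for Krt6b, Krt16 and Krt12, had the highest basal sums.

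Sebaceous gland markers summed to 106 to 175 TPM in experimental and 222 to 542 TPM in control libraries, without overlap. All 8 were below 0, with a median log2 change of -1.32, and 2 fell by limma, against 1.54% of all genes. Elovl3, a fatty acid elongase, averaged 16.2 ± 8.45 TPM in experimental and 61.8 ± 8.36 TPM in control libraries (limma adjusted p = 0.0116), and Plin2, a lipid droplet protein, 24.1 ± 6.46 and 69.0 ± 29.2 TPM in experimental and control libraries (limma adjusted p = 0.0498). Plin2 did not pass with any 1 library other than control 4 left out. It also did not pass with a pseudocount of 0.1 TPM, other filters on low values, median centring, quantile normalization or no variance trend. Without control library 4, 4 of the 8 fell, while falls over all genes went from 165 to 422. The remaining lists, of melanocytes, Langerhans cells, T cells, fibroblasts and erythroid cells, had overlapping sums and held no call by limma. At an unadjusted p under 0.05, 1 Langerhans cell marker was lower, against 13.4% of all genes. The part of cell makeup in the keratin levels was not tested.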

How the data were processed

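RNA of 8 epidermis libraries was measured, 4 experimental and 4 control. Per the labels' protocols, libraries were made with the NEBNext Ultra RNA kit; STAR, Salmon 0.14.0, SAMtools 1.9 and DESeq, with GRCm38 and mm10, stand without their roles in the submitters' processing notes. The expression table deposited by the authors, named as not corrected for batch, holds log2 TPM per gene, in which any entry of 1 TPM or less is a 0. This scale was read from the authors' deposited mean normalised count signal per kilobase, whose ratio to 2 to the power of the value stayed within 0.921 to 1.00 over 5 bins; the design had assumed log2(TPM + 1). The authors' deposited comparison table also gives log2 changes, Wald scores and p-values, and holds none of the 5 keratins. The deposited MAJIQ table gives a PSI fraction per pooled group and a probability score, per the file headers.

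Listed zeros were set to 1 TPM, levels were analysed as log2(TPM + 1), and 10682 genes with a mean of at least 1 TPM (zeros kept as 0) were tested. A change on this scale understates that of low genes. The fit by limma 3.58.1 (R 4.3.3) had group as the only term and a variance trend, two-sided, with Benjamini-Hochberg adjusted p under 0.05 as the threshold. Its p-values weigh the group difference against the spread of these libraries within a group, which the fit draws towards that of other genes. In data simulated over 10682 genes it recovered 55% of changes of 1 and 89% of changes of 2 on the log2 scale, with 5.26% false calls. The changes were placed only in genes with a mean log2(TPM + 1) above 4, so recovery of lower genes is unknown. Noise was drawn independently for each gene. The false calls therefore do not cover variation that genes of a library share. Other steps used Python 3.11.15, pandas 2.3.3, numpy 2.4.6, Biopython 1.88 and matplotlib 3.10.9. Depth is unknown, since TPM keeps none; 10401 to 11077 genes per experimental and 10523 to 11640 per control library were above 1 TPM. Column numbers match no replicate label, so libraries carry names 1 to 4 in table order and were not paired.

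The 5 keratins and all lists were chosen with earlier results of these data known. Other genes were named by rule: reference keratins and Esrp1; up to 4 passing members of lowest p per list, or the 2 most abundant where none passed; and the 3 genes of nearest profile to each keratin. Krt75, Krt4, Krt28, Krt32, Krt36, Krt73, Defb14, Sprr1b and Lce3e as list members, Elovl3 and Plin2 were named after their values were seen. Annotation was GENCODE M21. Alternatives were other pseudocounts, filters, scalings, no variance trend, and libraries left out.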

Additional observations from a re-analysis of the deposited data

Results flagged for a closer look

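Of 54 groups of 4 values examined, 3 held 1 library far from the other 3 by Dixon's criterion, which chance meets in about 1 in 20 groups. Krt12 in experimental library 4 stood at 3.497 on the log2(TPM + 1) scale, which is 10.3 TPM, against 63.9 to 75.5 TPM in the other experimental libraries. Krt6a over Krt14 stood at 0.207 in experimental library 1, against 0.0727 to 0.0800 in the other experimental libraries. The 5 keratins held 9.48% of the keratin TPM outside the follicle list in control library 4, against 5.63% to 6.17% in the other controls; that library had the lowest Krt14 (387 TPM) and the highest sum of follicle keratins (50021 TPM).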

How the results depend on the processing

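Depth is unknown and values at or under 1 TPM are not resolved, which limits Krt6b and Krt12 in controls. The log2 changes of the 5 keratins kept their sign under all alternatives run; over libraries left out 1 at a time they ran from 0.27 to 0.90 for Krt6a, 3.35 to 4.03 for Krt6b, 1.96 to 2.56 for Krt16, -0.39 to -0.15 for Krt17 and 2.89 to 3.87 for Krt12. Krt16 (2.28) was 1.57 against controls 1 and 2 alone and 2.99 against controls 3 and 4 alone. The 0.354 point higher share of keratin TPM held by the 5 ran from 0.0392 to 0.663 with 1 library out and was -1.89 with follicle keratins left out of the denominator (-0.9991 with control library 4 left out as well, an alternative chosen after seeing the data). Genes past the threshold (263) numbered 15 without experimental libraries 2 and 4, 2545 without controls 3 and 4, 507 without controls 1 and 2, and 85 (without experimental library 3) to 581 (without control library 4) with 1 library out. The split of 98 higher and 165 lower genes became 283 and 102 with median centring and 269 and 117 with quantile normalization. Over the lists of pathways and keratins, markers of other cell types not included, the 12 rises and 2 falls became 20 and 1 with centring, 19 and 1 with quantile normalization, 4 and 0 without experimental libraries 2 and 4, and 19 and 15 without control libraries 3 and 4; falls were 1 without a filter, 1 at a mean of 5 TPM and 9 without control libraries 1 and 2. With 1 library out they ran from 7 to 15 and from 1 to 5. Some log2 changes turned sign. With centring Junb became 0.16, Smo 0.0105, Rarg 0.0215, Rxra 0.13 and Krt14 0.0745; with quantile normalization Junb 0.0687, Flg -0.21, Rxra 0.0683 and Krt14 0.0166. Without experimental libraries 2 and 4 Junb became 0.16, Rxra 0.0239 and Krt14 0.0691. Without control libraries 3 and 4 Tgfa became 0.0694, Stat3 -0.41 and Junb 0.18. Without control libraries 1 and 2 Smo became 0.45, Flg -0.0167, Rxra 0.28, Krt5 0.45, Krt14 1.11 and Inpp5k 0.0394. With 1 library out Junb ran from -0.15 to 0.13, Rxra from -0.32 to 0.0504, Krt14 from -0.73 to 0.31, Smo from -0.56 to 0.0854 and Stat3 from -0.18 to 0.35. The cause of these changes was not tested. No paired analysis was possible because the columns of the table carry no replicate number that matches the labels.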
